A study of Homo sapiens with 9 samples.

Results

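The 8 genes described here encode the kinase P-TEFb and the ribonucleoprotein that holds it inactive. They were taken by symbol (HEXIM1, HEXIM2, CDK9, CCNT1, CCNT2, LARP7, MEPCE and RN7SK) from the 26830 genes of the deposited tables, and all 8 were found. Poly(A)-selected RNA was sequenced from cells labelled NB4, a human promyelocytic leukaemia line, after 48 h with FB23-2 (3 libraries), with FB23 (3 libraries) or with the solvent DMSO (3 libraries, labelled as controls). The series title concerns inhibition of FTO, an RNA demethylase, and both compounds are known as FTO inhibitors. The labels give neither doses nor a genetic change, and they do not say whether replicates came from separate cultures, so p-values measure the spread between these libraries, which may be technical.

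P-TEFb is a heterodimer of the kinase CDK9 and a T-type cyclin, CCNT1 or CCNT2, and it phosphorylates the tail of RNA polymerase II and its pausing factors so that paused polymerase moves into the gene body. A large share of P-TEFb in cells is kept inactive by HEXIM1 or HEXIM2, which dock onto the small nuclear RNA 7SK (gene RN7SK). MEPCE caps the 5′ end of 7SK and LARP7 binds its 3′ end, and both keep the particle stable. HEXIM1 was first described as a gene induced by hexamethylene bisacetamide, a compound that drives leukaemia and other cells to differentiate, and its mRNA is used as a readout of BET inhibitors, which free P-TEFb from the 7SK particle.

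The 7SK RNA and a promoter window of each of the member mRNAs that moved most in each direction are shown as a description, and no result below uses them. The first 120 of the 328 bases of RN7SK (chromosome 6, 52995621 to 52995948, plus strand, GRCh38, GENCODE 29) hold the 5′ hairpin on which HEXIM1 docks. Capitals mark GATC, the repeated element of that hairpin, and all 3 copies in the transcript lie within the printed stretch.
RN7SK: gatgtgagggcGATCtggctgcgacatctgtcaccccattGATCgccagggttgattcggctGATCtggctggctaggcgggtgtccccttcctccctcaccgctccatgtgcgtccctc
The windows of HEXIM1 (chr17:45148225-45148524, plus strand) and LARP7 (chr4:112636893-112637192, plus strand) run from 250 bases before to 50 bases after a RefSeq transcription start (GRCh38.p14). Capitals mark matches on either strand to short runs known as sites of transcription factors. They are TATAAA in promoters bound by the TATA-binding protein, CACGTG in sites of the MYC family, and CCAAT in sites of the factor NF-Y. The remaining ones are AGATAA in sites of haematopoietic GATA proteins and TGACGT in elements that respond to cyclic AMP.
HEXIM1: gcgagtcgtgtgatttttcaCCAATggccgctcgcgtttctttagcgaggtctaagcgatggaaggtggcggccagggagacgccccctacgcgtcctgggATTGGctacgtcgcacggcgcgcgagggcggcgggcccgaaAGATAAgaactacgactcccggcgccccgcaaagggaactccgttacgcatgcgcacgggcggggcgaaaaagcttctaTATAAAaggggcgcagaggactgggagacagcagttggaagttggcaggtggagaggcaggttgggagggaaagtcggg
LARP7: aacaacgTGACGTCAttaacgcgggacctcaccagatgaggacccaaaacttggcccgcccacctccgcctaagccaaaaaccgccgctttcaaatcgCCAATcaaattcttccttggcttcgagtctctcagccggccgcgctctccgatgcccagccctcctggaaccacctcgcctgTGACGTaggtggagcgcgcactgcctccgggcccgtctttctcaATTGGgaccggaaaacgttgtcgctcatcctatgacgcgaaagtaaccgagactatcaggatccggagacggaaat
The HEXIM1 window had TATAAA 29 bases before the start, AGATAA 108 bases before it and CCAAT in both orientations, 230 and 149 bases before it. The LARP7 window had CCAAT 152 bases before the start and its reverse complement 26 bases before it. It also had TGACGT 243 and 70 bases before the start, the copy at 243 overlapping a reverse complement at 241. Over 35116 RefSeq promoter windows of the same length, 11.5% held TATAAA, 34.6% CCAAT, 10.3% AGATAA, 7.98% TGACGT and 7.26% CACGTG. The CDK9 window held none of these 5 runs of letters. These matches describe the windows and say nothing of what binds there.

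Library totals ran from 12360291 to 38410750 expected counts, with the lowest and the highest both in FB23. FB23-2 set most genes apart from DMSO: 82.6% of 13365 tested genes were called against it at an adjusted p under 0.05, compared with 23.5% for FB23. The label was at odds with several marker genes. The promyelocyte granule genes MPO and CTSG were listed at 0 in every library, and the 5 granule genes summed to at most 1.77 TPM (transcript level scaled to length and to the library). The 8 erythroid markers, fetal globins among them, were all detected and summed to 3870 to 4439 TPM with FB23-2, 30980 to 33330 TPM with FB23 and 27040 to 28620 TPM with DMSO. The 4 epithelial markers summed to 2889 to 3081, 726.1 to 750.2 and 674.7 to 682.8 TPM in the same order, the 7 myeloid and monocyte markers to 123 to 128.5, 69.3 to 73.26 and 81.05 to 86.51 TPM, and the 5 lymphoid markers, of which MS4A1 was at 0 throughout, to 30.63 to 35.41, 4.15 to 5.17 and 4.87 to 6.86 TPM. Within these lists single genes differed: EPCAM was lower with FB23-2 (25.5 TPM, against 73.5 TPM with DMSO) where KRT8, KRT18 and KRT19 were higher. Of the myeloid sum, SPI1 made up most of the difference (58.6 TPM with FB23-2, against 25.1 TPM with DMSO), while CD33 was at 44.4 and 44.0 TPM and ITGAM at 3.63 and 4.45 TPM in these groups. The sums moved with FB23-2 alongside the member genes. Their part in the results below was not tested, and in bulk RNA fewer cells of a type and less RNA per cell cannot be told apart.

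With FB23-2 against DMSO, 2 of the 7 member mRNAs were higher (HEXIM1 and CDK9), 3 were lower (LARP7, MEPCE and CCNT1) and 2 were not called (HEXIM2 and CCNT2). Over all tested genes 41.3% were called higher and 41.3% lower, so 5 of 7 called is not a result about the members beside a background of 82.6%. On the TPM scale the tested genes were split into 50.5% higher and 31.9% lower, and the mRNAs into 4 higher and 2 lower: HEXIM2 and CCNT2 gained a call, CCNT1 lost its call, and the other 4 calls kept their direction. With FB23 against DMSO the same 2 mRNAs, HEXIM1 and CDK9, were higher and 5 were not called, beside 23.5% of all tested genes called, of which 12.3% were higher and 11.2% lower. Once trends with GC content and gene length were removed, those shares for FB23 were 14.1% higher and 20.5% lower, and the same 2 mRNAs were called higher. Both comparisons share the DMSO libraries.

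HEXIM1, the main protein inhibitor of P-TEFb, was higher with both compounds, and its rise with FB23-2 was the largest among the 7 mRNAs. Its level was 71.5, 72.0 and 74.7 TPM in the 3 FB23-2 libraries, 32.9, 35.4 and 33.3 TPM in the FB23 libraries, and 26.6, 25.0 and 27.2 TPM in the DMSO libraries. The 3 groups did not overlap, and every FB23 library lay between the other groups. Groups also did not overlap for 83.8% of tested genes in FB23-2 against DMSO, 36.4% in FB23 against DMSO and 80.7% in FB23-2 against FB23, in TPM. The fold change was 2.33 (95% interval 2.17 to 2.50) for FB23-2 against DMSO, a log2 fold change of 1.22 ± 0.05 (SE, n = 3 each; edgeR, adjusted p = 1.33e-13). For FB23 against DMSO it was 1.28 (95% interval 1.19 to 1.37), a log2 fold change of 0.36 ± 0.05 (edgeR, adjusted p = 8.22e-05). A change of this size with FB23-2 was not rare: 82.9% of tested genes had a lower log2 fold change, and 20.7% were called with a rise of at least 1 on the log2 scale. With FB23 89.3% had a lower one, and only 0.763% were called with a rise of at least 1. HEXIM1 kept its call and its direction in all 21 other ways of processing, with log2 fold changes of 1.01 to 1.47 for FB23-2 and 0.32 to 0.39 for FB23. It is a single-exon gene (chromosome 17, 45148502 to 45152101, plus strand), and it overlaps the antisense gene AC138150.1. The kit marks strand, but the strand setting of the counting is not given in the sources used here, so reads of the pair could have been mixed.

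HEXIM2, the paralogue that can replace HEXIM1 in the 7SK particle, was expressed at a far lower level. It had 3.87, 4.67 and 3.84 TPM with FB23-2, 3.24, 3.28 and 3.27 TPM with FB23, and 2.79, 2.84 and 3.33 TPM with DMSO. The FB23-2 libraries lay above the others on this scale, where 83.8% of tested genes did not overlap against DMSO and 80.7% against FB23. On the TMM-scaled counts (CPM, scaled to the library but not to length) used for the test, the FB23-2 libraries overlapped the others. The fold change was 1.16 (95% interval 0.920 to 1.48; edgeR, adjusted p = 0.214) for FB23-2 and 1.09 (0.860 to 1.37; adjusted p = 0.642) for FB23, so a rise of up to 1.48-fold with FB23-2 is within the interval. The gene was called higher with FB23-2 on the TPM scale (log2 fold change 0.36 with a pseudocount of 1) and with library totals (0.37) or upper-quartile factors (0.39). It lies 8599 bases beyond the end of HEXIM1 on the same strand (chromosome 17, 45160700 to 45170040), and it overlaps the opposite-strand gene AC138150.2, so the limit given for HEXIM1 applies here too.

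CDK9, the kinase subunit, was higher with both compounds. Its level was 73.7, 73.0 and 72.2 TPM with FB23-2, 59.5, 61.0 and 60.1 TPM with FB23, and 51.2, 48.2 and 52.2 TPM with DMSO. The groups did not overlap in TPM, while in CPM both compound groups lay above DMSO and overlapped each other. The shares of tested genes with no overlap in CPM were 84.2% for FB23-2 against DMSO, 37.9% for FB23 against DMSO and 81.2% for FB23-2 against FB23. The log2 fold change was 0.28 ± 0.05 for FB23-2 (fold 1.22, 95% interval 1.13 to 1.31; edgeR, adjusted p = 7.82e-05). For FB23 it was 0.24 ± 0.05 (fold 1.18, 95% interval 1.10 to 1.27; edgeR, adjusted p = 0.00319). Both calls held in all 21 other ways of processing, although the size with FB23-2 ran from 0.11 to 0.53.

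**Figure D1:**
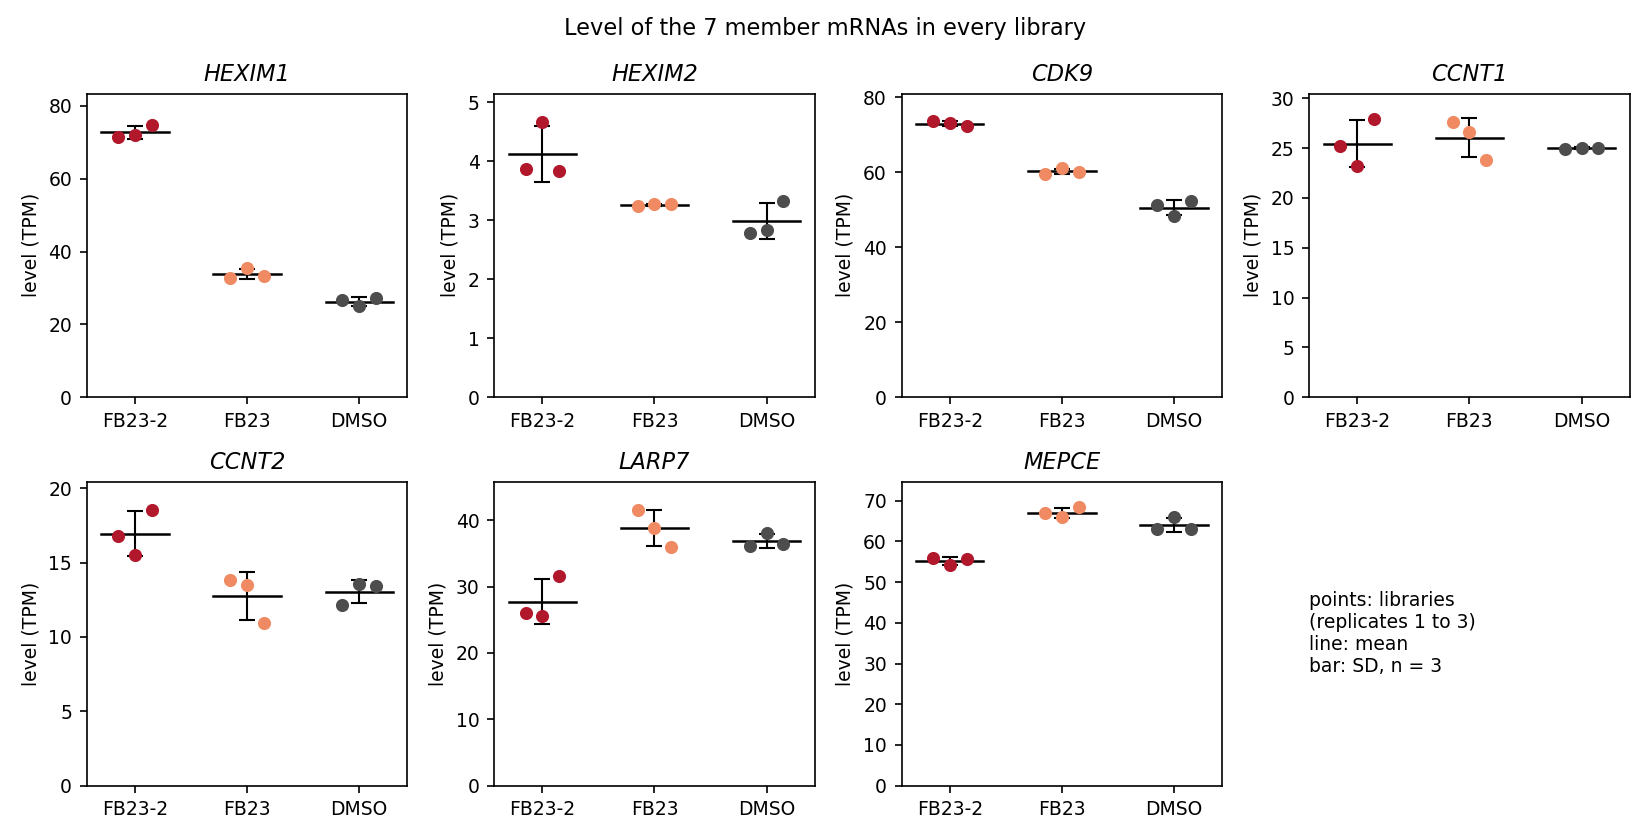
Level of the 7 member mRNAs in TPM (vertical axes from 0), with a point for each library, a line for the mean and a bar for the SD (n = 3), in FB23-2, FB23 and DMSO from left to right. HEXIM1 lies at 71.5 to 74.7 TPM with FB23-2, above FB23 and DMSO, while LARP7 and MEPCE lie lower with FB23-2 than in either other group.

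The cyclins differed from the kinase. CCNT1, the main cyclin partner of CDK9, had 25.2, 23.2 and 27.9 TPM with FB23-2, 27.7, 26.6 and 23.9 TPM with FB23, and 25.0, 25.1 and 25.1 TPM with DMSO, so the groups overlapped on this scale. In CPM it had 111, 100.3 and 114 with FB23-2, 136, 132 and 123 with FB23, and 129, 126 and 126 with DMSO. There the FB23-2 libraries lay below the others, where 84.2% of tested genes did not overlap against DMSO and 81.2% against FB23. The fit called CCNT1 lower with FB23-2 (log2 fold change -0.23 ± 0.05, edgeR adjusted p = 0.000765) and did not call it with FB23 (0.04 ± 0.05, adjusted p = 0.671). The fall with FB23-2 was lost with upper-quartile factors (-0.06, adjusted p = 0.338), with library totals (-0.08, adjusted p = 0.201) and on the TPM scale, where the sign turned (0.02, adjusted p = 0.811).

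CCNT2, the second cyclin that can activate CDK9, had 16.8, 15.5 and 18.5 TPM with FB23-2, 13.8, 13.5 and 10.9 TPM with FB23, and 12.1, 13.5 and 13.5 TPM with DMSO. The FB23-2 libraries were the highest in TPM and overlapped the others in CPM. In TPM 83.8% of tested genes did not overlap between FB23-2 and DMSO, and 80.7% between FB23-2 and FB23. The log2 fold change was 0.12 ± 0.07 for FB23-2 (edgeR, adjusted p = 0.114) and -0.06 ± 0.07 for FB23 (adjusted p = 0.589), and neither was called. For FB23-2 the call was reached on the TPM scale (0.35 with a pseudocount of 1), with upper-quartile factors (0.30), with library totals (0.27), without FB23 replicate 3 (0.13, adjusted p = 0.0275) and in a fit of only the 6 libraries compared (0.13, adjusted p = 0.0305). For both cyclins, then, whether a change with FB23-2 is called depends on how libraries are scaled, and for CCNT2 also on which libraries are fitted.

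The 7SK-binding proteins were both lower with FB23-2. LARP7 had 26.0, 25.6 and 31.6 TPM with FB23-2, 41.5, 38.8 and 36.0 TPM with FB23, and 36.2, 38.1 and 36.4 TPM with DMSO. Every FB23-2 library was below every other library. Such separation in TPM was common, at 83.8% of tested genes for FB23-2 against DMSO and 80.7% for FB23-2 against FB23. The log2 fold change of LARP7 was -0.67 ± 0.06 for FB23-2 (fold 0.629, 95% interval 0.574 to 0.689, edgeR adjusted p = 1.99e-08) and 0.05 ± 0.06 for FB23 (adjusted p = 0.619). MEPCE, the capping enzyme, had 56.0, 54.1 and 55.6 TPM with FB23-2, 66.9, 65.9 and 68.3 TPM with FB23, and 62.9, 66.0 and 63.1 TPM with DMSO. It fell in the same libraries, by less, with FB23-2 below both other groups. Its log2 fold change was -0.46 ± 0.05 for FB23-2 (fold 0.728, 95% interval 0.676 to 0.785; edgeR, adjusted p = 2.04e-07) and 0.05 ± 0.05 for FB23 (adjusted p = 0.471). Both falls held in all 21 other ways of processing, at -0.74 to -0.41 for LARP7 and -0.73 to -0.21 for MEPCE. LARP7 (chromosome 4, 112636964 to 112657592, plus strand, 15 exons) and MEPCE (chromosome 7, 100428790 to 100434126, plus strand, 5 exons) overlap the opposite-strand genes AC106864.1 and ZCWPW1, so the limit given for HEXIM1 applies to them too.

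**Figure D2:**
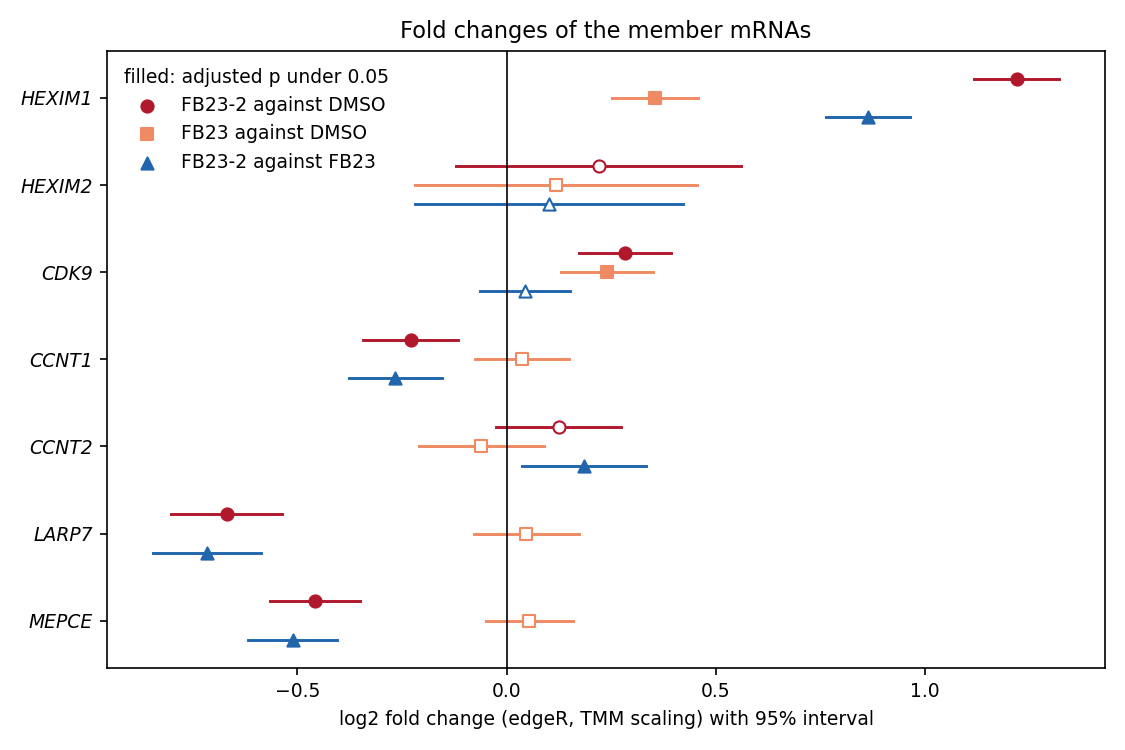
Log2 fold change (horizontal axis, edgeR with TMM scaling) of the 7 member mRNAs in the 3 comparisons, with 95% intervals and filled symbols for an adjusted p under 0.05. HEXIM1 stands at 1.22 for FB23-2 against DMSO and LARP7 at -0.67, while with FB23 only HEXIM1 (0.36) and CDK9 (0.24) are filled.

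RN7SK has no poly(A) tail, and few of its reads passed the selection. The libraries held 32, 45 and 20 reads with FB23-2, 0, 10 and 8 with FB23, and 4, 8 and 3 with DMSO, or 1.24, 2.33 and 1.22 CPM, 0, 0.326 and 0.216 CPM, and 0.244, 0.449 and 0.185 CPM. Every FB23-2 library was above every other library in CPM, where 84.2% of tested genes did not overlap against DMSO and 81.2% against FB23. The 0 of FB23 replicate 1 allows up to 0.246 CPM at 3 counts, a limit for counting error only. Since the fragments were longer than the RNA, its effective length was 14.1 to 20.7 of 332 bases, and its TPM values are not used as levels. The fitted log2 fold change was 2.39 ± 0.47 for FB23-2 against DMSO (edgeR, adjusted p = 0.000158) and -0.41 ± 0.64 for FB23 (adjusted p = 0.7). The gene passed the filter on low counts only through its FB23-2 libraries, so the value for FB23-2 had to be high and supports nothing. Of the 21 other ways of processing, 1 lost the call for FB23-2 against DMSO, that on the TPM scale with a pseudocount of 0.1 (2.60, limma, adjusted p = 0.139). These reads measure what escaped a selection against such RNAs and not the amount of 7SK in the cells.

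The other RNA polymerase III transcripts did not share a single pattern. Of 16 listed, 15 were in the tables and 3 passed the filter, RN7SK included, and RN7SL3 was not analysed here. RN7SL1, an RNA of the signal recognition particle, was at 1.54, 2.33 and 1.03 CPM with FB23-2, 0.410, 1.93 and 1.05 CPM with FB23, and 1.28, 1.23 and 0.864 CPM with DMSO, and was called in neither comparison with DMSO (log2 fold change 0.54, edgeR adjusted p = 0.207, and 0.15, adjusted p = 0.833). Its near-identical copy RN7SL2 was at 1.89, 1.97 and 3.16 CPM with FB23-2, 2.79, 3.36 and 2.51 CPM with FB23, and 1.10, 0.617 and 0.864 CPM with DMSO. It was called higher with FB23-2 (1.42 ± 0.29; edgeR, adjusted p = 0.000268) and with FB23 (1.75 ± 0.28; adjusted p = 0.000317). Reads of the copies can be split between them, so both are uncertain. RMRP, the RNA of another ribonucleoprotein, had too few reads to test.

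**Figure D3:**
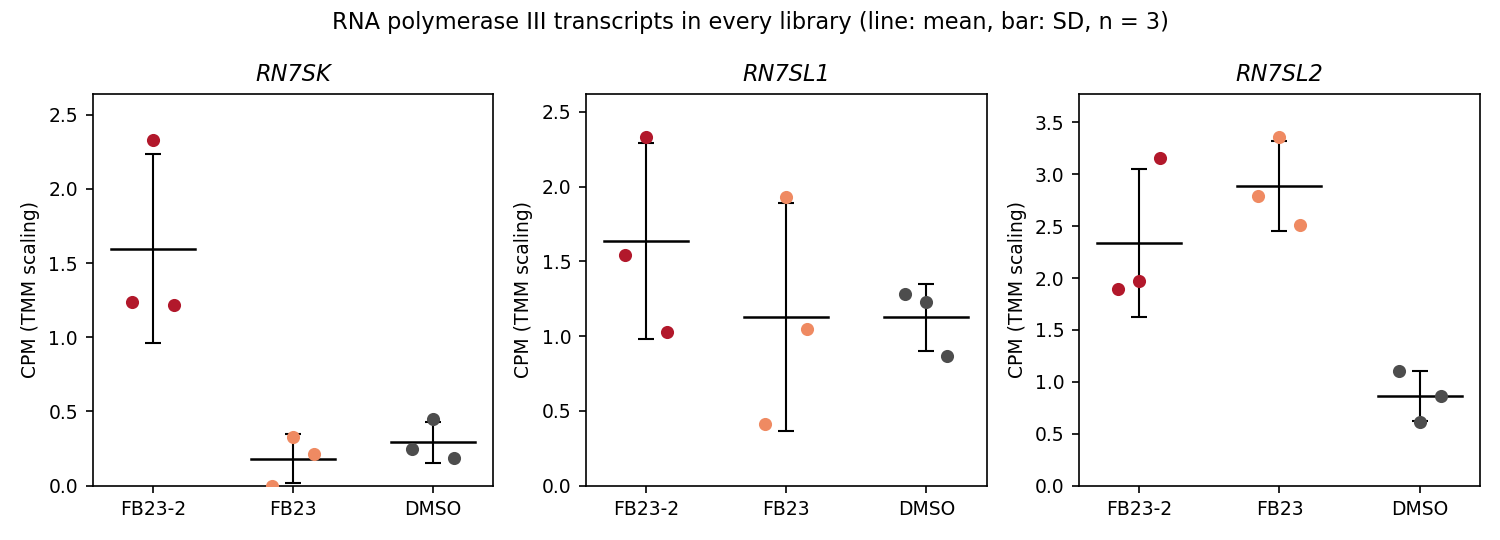
CPM with TMM scaling (vertical axes from 0) of RN7SK, RN7SL1 and RN7SL2 in every library, with a line for the mean and a bar for the SD (n = 3), in FB23-2, FB23 and DMSO from left to right. RN7SK lies at 1.22 to 2.33 CPM with FB23-2 and under 0.5 CPM elsewhere, while RN7SL2 is higher than DMSO with both compounds.

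The compounds form 1 pair, compared at the same time of 48 h with doses that the labels do not give, so compound and dose cannot be told apart. FB23-2 against FB23, HEXIM1 was 1.82-fold higher (95% interval 1.70 to 1.95; log2 fold change 0.86 ± 0.05; edgeR, adjusted p = 1.17e-11), less than a rise of 1 on the log2 scale, which 18.1% of tested genes were called with. LARP7 was lower, with a log2 fold change of -0.72 ± 0.06 (adjusted p = 6.31e-09), as were MEPCE at -0.51 ± 0.05 (adjusted p = 3.94e-08) and CCNT1 at -0.27 ± 0.05 (adjusted p = 0.000178). CCNT2 was higher (0.18 ± 0.07, adjusted p = 0.0221). The fitted value of RN7SK was 2.80 ± 0.45 (adjusted p = 1.78e-05), which also had to be high because of the filter and supports nothing. These calls, 2 higher and 3 lower of the 7 mRNAs, stand beside 81.5% of all tested genes called, 40.4% higher and 41.1% lower. On the TPM scale those shares were 49.5% higher and 30.9% lower, and the mRNAs 4 higher and 2 lower. CDK9 did not pass the test between the compounds: its fold change was 1.03, with a 95% interval of 0.957 to 1.11 (edgeR, adjusted p = 0.434). That is no evidence of equal action, since CDK9 was called higher on the TPM scale (0.27 with a pseudocount of 1) and lower after removal of GC and length trends (-0.13, adjusted p = 0.0035). HEXIM2 did not pass either (fold 1.07, 95% interval 0.859 to 1.34; adjusted p = 0.546). The CCNT2 difference was lost without FB23 replicate 3 (0.10, adjusted p = 0.134) and without FB23-2 replicate 3 (0.15, adjusted p = 0.081), with no filter on low counts (0.13, adjusted p = 0.0692) and after removal of GC and length trends (0.07, adjusted p = 0.137). The CCNT1 difference was lost with upper-quartile factors (adjusted p = 0.0976) and on the TPM scale (adjusted p = 0.686).

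The order of levels shows how the set was rearranged. TPM levels of different genes rest on the lengths in the tables, which for some genes exceed those of the matched GENCODE transcripts: 4785 against 3600 bases for HEXIM1, 1906 against 803 for HEXIM2 and 6822 against 4491 for CCNT2. Comparisons of 1 gene or 1 ratio between groups share these lengths. With FB23-2, CDK9 (72.9 ± 0.755 TPM, mean ± SD, n = 3 as for all means here) and HEXIM1 (72.7 ± 1.76 TPM) came first and overlapped, followed by MEPCE (55.3 ± 0.983 TPM). LARP7 (27.7 ± 3.36 TPM) and CCNT1 (25.5 ± 2.34 TPM) overlapped next, above CCNT2 (16.9 ± 1.51 TPM) and HEXIM2 (4.13 ± 0.471 TPM). With FB23 the order was MEPCE (67.1 ± 1.23 TPM), CDK9 (60.2 ± 0.761 TPM), LARP7 (38.8 ± 2.74 TPM), HEXIM1 (33.9 ± 1.39 TPM), CCNT1 (26.0 ± 1.96 TPM), CCNT2 (12.8 ± 1.59 TPM) and HEXIM2 (3.26 ± 0.0208 TPM), with no overlap between neighbours. With DMSO it was MEPCE (64.0 ± 1.71 TPM), CDK9 (50.5 ± 2.08 TPM), LARP7 (36.9 ± 1.06 TPM), HEXIM1 (26.3 ± 1.13 TPM), CCNT1 (25.0 ± 0.0635 TPM), CCNT2 (13.0 ± 0.789 TPM) and HEXIM2 (2.99 ± 0.298 TPM), where HEXIM1 and CCNT1 overlapped. HEXIM1 thus stood below MEPCE, CDK9 and LARP7 in the FB23 and DMSO groups and beside CDK9 at the top in the FB23-2 group.

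Ratios within a library do not depend on the scaling between libraries, but their size rests on the gene lengths as the order of levels does, and they are given as a description with no test. The transcripts of both inhibitors together over those of CDK9 stood at 1.02 to 1.09 with FB23-2, 0.607 to 0.635 with FB23 and 0.575 to 0.584 with DMSO. The FB23-2 libraries thus lay above all others in this ratio. In TPM, groups did not overlap for 83.8% of tested genes in FB23-2 against DMSO. The shares were 36.4% in FB23 against DMSO and 80.7% in FB23-2 against FB23. No such share was computed for ratios, so separation of groups here is not a result about the members. HEXIM1 over HEXIM2 was 15.4 to 19.5 with FB23-2, 10.1 to 10.8 with FB23 and 8.16 to 9.54 with DMSO. HEXIM1 over LARP7 was 2.36 to 2.81, 0.792 to 0.923 and 0.656 to 0.746 in the same order of groups. CCNT1 over CCNT2 was 1.50 to 1.51 with FB23-2, 1.97 to 2.19 with FB23 and 1.85 to 2.06 with DMSO, so the mix of cyclin transcripts held less CCNT1 with FB23-2 whatever the scaling. The cyclins together over CDK9 were 0.531 to 0.643, 0.578 to 0.698 and 0.724 to 0.801 with FB23-2, FB23 and DMSO, and both compound groups lay below DMSO. These are ratios of mRNA levels and not of proteins.

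**Figure D4:**
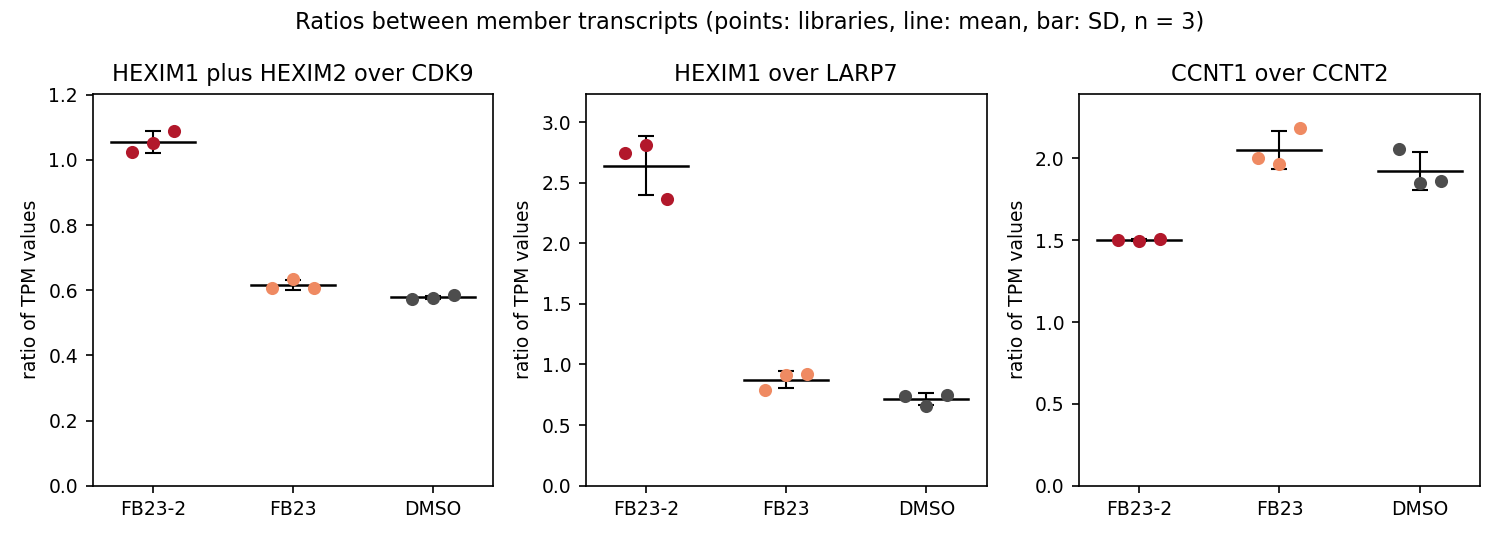
Ratios of TPM values within each library (vertical axes from 0), with a line for the mean and a bar for the SD (n = 3), in FB23-2, FB23 and DMSO from left to right. HEXIM1 plus HEXIM2 over CDK9 lies at 1.02 to 1.09 with FB23-2 and below 0.64 elsewhere, and CCNT1 over CCNT2 is lowest with FB23-2.

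The genes whose pattern over the 9 libraries was nearest to that of HEXIM1 included ARRDC1 and MAP3K3, with root mean square distances of 0.0511 and 0.0518 on the log2 CPM scale among 10811 genes. Their log2 fold changes were 1.21 and 1.24 with FB23-2 and 0.35 and 0.39 with FB23. Nearest to CDK9 were TOP3B (0.0353), SUMF2 (0.0429) and LIG1 (0.0450), with log2 fold changes of 0.28, 0.34 and 0.27 with FB23-2 and 0.20, 0.25 and 0.22 with FB23. After removal of GC and length trends TOP3B and LIG1 turned to -0.11 and -0.22 with FB23-2, where CDK9 stayed positive. The likeness was found by a search over these same libraries and is a description.

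Most tested genes of the lists around P-TEFb and the RN7SK gene were lower with FB23-2, where HEXIM1 and CDK9 were higher. The lists were chosen with earlier results of these data known, so their counts are a description. Over 7 lists of 69 genes, of which 66 were tested, 9 were higher and 48 lower with FB23-2 against DMSO, with a median log2 fold change of -0.46 where that of all tested genes was 0.01. The total called was close to the background of 82.6%, while the directions of all tested genes were even, 41.3% each way. On the TPM scale the split was 14 higher and 37 lower, beside 50.5% and 31.9% of all tested genes (pseudocount of 1). With FB23 2 were higher and 15 lower, close in total to the background of 23.5% (12.3% higher and 11.2% lower), with a median of -0.03. On the TPM scale 4 were higher and 8 lower, beside 10.5% and 7.03% of all tested genes. Those lower with FB23 numbered 6 without DMSO replicate 1, 9 without DMSO replicate 2 and 8 without FB23 replicate 2. Of all tested genes 7.08%, 7.33% and 7.32% were lower in these fits. FB23-2 against FB23 gave 8 higher and 49 lower, with a median of -0.40, beside 40.4% higher and 41.1% lower over all tested genes. On the TPM scale 13 were higher and 33 lower, beside 49.5% and 30.9% of all tested genes.

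The partners that carry P-TEFb to genes were divided. Of 10 tested genes of the super elongation complex, 3 were higher and 4 lower with FB23-2, a smaller share than the 82.6% of all tested genes called. ELL2, an elongation factor of that complex, was at 43.5 to 49.8 TPM with FB23-2, 15.7 to 19.2 TPM with FB23 and 15.8 to 17.0 TPM with DMSO, and it rose by 1.23 ± 0.06 on the log2 scale with FB23-2 (edgeR, adjusted p = 7.87e-13). It was not called with FB23 (0.06, adjusted p = 0.529). AFF4, the scaffold that binds cyclin T, rose by 0.74 ± 0.06 with FB23-2 (adjusted p = 5.02e-09), and MLLT3, a reader of acetylated histones, was lower at -0.59 ± 0.09 (adjusted p = 8.62e-06). No gene of the complex was called with FB23 in the fit reported here, beside 23.5% of all tested genes. AFF4 gained a call without FB23 replicate 3 (0.21, adjusted p = 0.0111), with no filter on low counts (0.16, adjusted p = 0.0265) and once GC and length trends were removed (0.12, adjusted p = 0.0219). MLLT3 gained one without FB23-2 replicate 3 (-0.23, adjusted p = 0.0471) and once those trends were removed (-0.23, adjusted p = 0.0212). In the complex 3 were higher and 5 lower with FB23-2 against FB23, close to the 81.5% of all tested genes called (40.4% higher and 41.1% lower). ELL3 was among the lower ones (-0.92 ± 0.25, edgeR adjusted p = 0.00308), but few reads back it. Its mean was 0.958 CPM with FB23-2 and 1.85 CPM with FB23, from 58 and 140 counts summed over the libraries of each group. Of the chromatin proteins that recruit P-TEFb, BRD3 was higher (0.45 ± 0.06, adjusted p = 1.13e-06) and JMJD6, a dioxygenase known to act in pause release, lower (-0.54 ± 0.06, adjusted p = 1.21e-07). Neither was called with FB23.

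**Figure D5:**
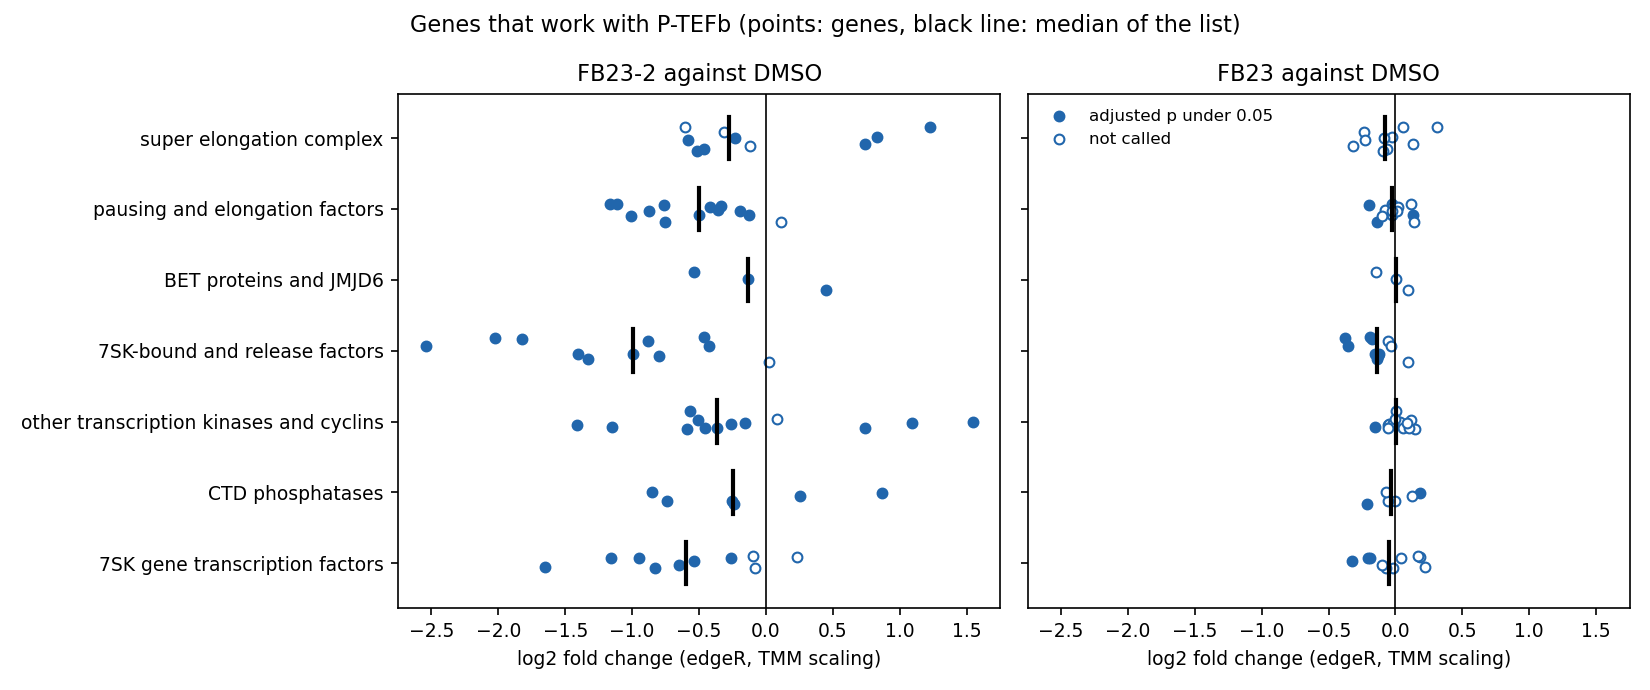
Log2 fold change (horizontal axes, edgeR with TMM scaling) of the tested genes of 7 lists around P-TEFb and the RN7SK gene. FB23-2 against DMSO is on the left and FB23 against DMSO on the right. Filled points have an adjusted p under 0.05 and black lines mark the list medians. With FB23-2 the factors that bind 7SK or free P-TEFb from it have the lowest median, -0.99.

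The factors that P-TEFb acts upon or that free it were nearly all lower with FB23-2. Of 11 proteins that bind 7SK or release P-TEFb, 10 were lower and 0 higher (median -0.99), beside 41.3% of all tested genes lower; on the TPM scale 10 were lower and 1 higher. With FB23 8 were lower and 0 higher (median -0.14), beside 11.2% of all tested genes lower. On the TPM scale or with no filter 4 were lower, beside 7.03% (pseudocount of 1) and 5.74% of all tested genes. With library totals 5 were lower, beside 8.77% of all tested genes. DDX21, a helicase known to evict P-TEFb from 7SK, was at 52.9 to 61.5 TPM with FB23-2, 194 to 238 TPM with FB23 and 272 to 279 TPM with DMSO, a log2 fold change of -2.54 ± 0.06 with FB23-2 (edgeR, adjusted p = 7.43e-17) and -0.36 ± 0.05 with FB23 (adjusted p = 0.000148). SYNCRIP, an RNA-binding protein of the 7SK particle that lacks P-TEFb, was the most reduced of the list with FB23 (-0.37 ± 0.05, adjusted p = 6.39e-05). Of 13 pausing and elongation factors, 12 were lower and 0 higher with FB23-2, beside 41.3% of all tested genes each way, and 9 lower and 1 higher on the TPM scale. With FB23 1 was higher and 2 lower, close to the background of 23.5% called. WDR61, a subunit of the PAF1 complex, was the most reduced of them with FB23-2 (-1.17 ± 0.06, adjusted p = 3.44e-12), and SUPT5H, the DSIF subunit that P-TEFb phosphorylates, had -0.36 ± 0.05 (adjusted p = 2.1e-06). With FB23, NELFA of the pausing complex NELF was lower (-0.20 ± 0.06, adjusted p = 0.0176). RTF1, another PAF1 partner, was called higher (0.13 ± 0.05, adjusted p = 0.0482), and lost the call in 12 of the 21 other ways of processing. NELFA lost its call without DMSO replicate 1 (adjusted p = 0.0955), DMSO replicate 3 (0.0569) or FB23 replicate 2 (0.108).

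Other transcription kinases and the phosphatases changed in both directions with FB23-2, and no factor of the 7SK gene was called higher. Of 13 other transcription kinases and cyclins, 3 were higher and 9 lower with FB23-2 (4 and 6 on the TPM scale), beside 82.6% of all tested genes called. With FB23 0 were higher and 1 lower, beside 23.5%. CDK19, a kinase of the Mediator complex, rose by 1.55 ± 0.09 with FB23-2 (edgeR, adjusted p = 2.57e-11), and CCNH, the cyclin of the kinase CDK7, was at -1.41 ± 0.06 (adjusted p = 1.94e-13). CDK12 was the 1 called with FB23 (-0.15 ± 0.05, adjusted p = 0.0329; lost in 9 of the other ways), and CDK11A and CDK11B of this list are near-identical copies whose counts are uncertain. Of 6 phosphatases of the polymerase tail, 2 were higher and 4 lower with FB23-2, beside 82.6% of all tested genes called, and only 2 were lower with upper-quartile factors, library totals or on the TPM scale. CTDSP2 was at 0.87 ± 0.04 (adjusted p = 2.27e-12) and RPAP2 at -0.85 ± 0.09 (adjusted p = 5.82e-08). With FB23, CTDSP2 was higher (0.18 ± 0.04, adjusted p = 0.00529) and CTDSP1 lower (-0.21 ± 0.05, adjusted p = 0.00601). Of 10 transcription factors of the RN7SK gene, 7 were lower and 0 higher with FB23-2, fewer in all than the 82.6% of tested genes called, and on the TPM scale 6 were lower and 2 higher. SNAPC5 of the snRNA-activating complex was the most reduced (-1.65 ± 0.21, edgeR adjusted p = 9.57e-07). With FB23 3 of the 10 were lower, beside 11.2% of all tested genes, and BRF2 was the most reduced (-0.32 ± 0.07, edgeR adjusted p = 0.00203).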

How the data were processed

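Poly(A)-selected RNA of 9 libraries was extracted with TRIzol and prepared with a directional NEBNext kit, per the labels' protocols. The deposited tables give expected counts per gene, estimated by RSEM 1.2.31 on GRCh38 per the submitters' processing notes, and, per the file headers, TPM and FPKM values that RSEM scales for length and depth. Aligner, annotation and strand setting: not given in the sources used here. After rounding, the test was edgeR 4.0.16 under R 4.3.3 (quasi-likelihood F test, two-sided, TMM factors, filterByExpr with a minimum count of 10 and total of 15, 13365 genes, 1 mean per group over all 9 libraries), adjusted by Benjamini and Hochberg over all tested genes, with calls at an adjusted p under 0.05. The biological coefficient of variation was 5.12%. Standard errors come from the F statistic.

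TPM gives levels and ratios, and the deposited FPKM was used only to check the order of levels. The TMM-scaled CPM gives the values behind the fold changes. The members and lists were chosen with earlier results of these data known. Named from each list were the called genes with the largest rise and fall in each comparison, a few set genes (among them AFF4, ELL2, SUPT5H, RN7SL1, RN7SL2, RMRP), and the 3 genes nearest to HEXIM1 and to CDK9 at a mean log2 CPM of at least 1; the text gives those of FB23-2 against FB23 only where they differ from those against DMSO, and some genes that met the rule are not reported here. Genes were matched through RefSeq transcripts to GENCODE 29, and promoter windows come from RefSeq. A comparison of transcript length was planned and is void, because 0 genes list more than 1 transcript or a length that differs between libraries. The fit was tested on simulated data. Other ways of processing were DESeq2 1.42.0 size factors and Wald test, upper-quartile factors, library totals, other count filters, limma 3.58.1 on voom weights or on log2(TPM + 1) and log2(TPM + 0.1), only the 6 libraries compared, a replicate block, removal of GC and length trends, and each library left out. Same-numbered libraries did not deviate together (correlations -0.34 to 0.066), so the numbers were not used as pairs. No replicates were identical, and all differed beyond sampling noise.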

Additional observations from a re-analysis of the deposited data

How the results depend on the processing

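HEXIM1, LARP7, MEPCE and, against DMSO, CDK9 kept direction and side of the threshold in all 21 alternatives. Of 503 member values 474 stayed on their side, 10 lost the call, 16 gained it and 3 reversed. The TPM scale moved the median tested gene by 0.24 (log2) for FB23-2 against DMSO, upper-quartile factors by 0.17, library totals by 0.15 and GC and length removal by -0.12. Members higher with FB23-2 against DMSO numbered 4 (2 in the report) with upper-quartile factors, library totals and both TPM settings. Against FB23 they numbered 4 on the TPM scale and 1 with no filter or GC and length removal; leaving out a library gave 1 to 2 there and 2 to 3 against DMSO. CCNT1 reversed on the TPM scale (0.02), as did CDK9 against FB23 with GC and length removal (-0.125) and TOP3B and LIG1 with the same setting (-0.112 and -0.22). Elongation genes higher were 14 (9 in the report) for FB23-2 against DMSO and 13 (8) against FB23 on the TPM scale. For FB23 against DMSO, where the report has 2 higher and 15 lower, the higher ones numbered 1 with DESeq2 size factors, the DESeq2 Wald test and the replicate block, and 4 with library totals, no filter, GC and length removal and TPM. The lower ones numbered 9 with library totals, 8 with no filter, the replicate block and TPM, and 23 with GC and length removal. Of all tested genes 8.77%, 5.74%, 8.74%, 7.03% (pseudocount of 1) and 20.5% were lower in the same order. Leaving out a library gave 1 to 3 higher and 6 to 16 lower. The lower ones numbered 6 without DMSO replicate 1, 9 without DMSO replicate 2 and 8 without FB23 replicate 2. The replicate block changed no member call. Differences between groups in the log2 ratios moved by less than the replicate spread in CPM per length. The library scaling cancels within a ratio, so this could hardly turn out otherwise and is no check of the ratios. The cause of these shifts was not tested. Depth limits HEXIM2 (44 to 143 counts a library) and RN7SK; transcript length and its alternative were not run.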

Other observations

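Genes beside HEXIM1 on chromosome 17 were looked at after the values of HEXIM1 were seen, so these are descriptions. PLCD3, a phospholipase C gene that starts upstream of HEXIM1 and runs away from it on the minus strand, had log2 fold changes of 1.41 ± 0.08 with FB23-2 (edgeR, adjusted p = 2.44e-11) and 0.49 ± 0.08 with FB23 (adjusted p = 0.000523). ACBD4, which lies before HEXIM1 on the plus strand and overlaps the start of PLCD3 on the opposite strand, so that reads of this pair could have been mixed, had 1.13 ± 0.11 (adjusted p = 5.52e-08) and 0.51 ± 0.12 (adjusted p = 0.00501). Both were thus called higher with each compound, as HEXIM1 was, beside 41.3% of all tested genes higher with FB23-2 and 12.3% with FB23. NMT1, beyond PLCD3, was lower with FB23-2 (-0.70 ± 0.04, adjusted p = 3.62e-11) and not called with FB23 (-0.02 ± 0.04, adjusted p = 0.766), and HEXIM2 on the other side was called with neither. Against FB23, FB23-2 gave 0.92 ± 0.08 for PLCD3, 0.62 ± 0.10 for ACBD4 and -0.68 ± 0.04 for NMT1.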
